A study of Mus musculus with 24 samples.

Results

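Proneural and intermediate progenitor genes, 8 in all, that mark the step from apical progenitor to neuron were followed through the dissected mouse archicortex (ARK), the medial wall of the developing cortex from which the hippocampus forms: Neurod4, Neurog1, Neurog2, Eomes, Btg2, Insm1, Gadd45g and Elavl2. They were chosen by name, 8 of the 51912 genes in the table, and all 8 were among the 16454 that passed the filter on low values. The question was whether the rise of Neurod4 in mutants for the transcription factor Sox9 was shared by the other 7. RNA was sequenced in 24 libraries from mixed C57BL/6J;MF1 embryos, 4 in each of 6 groups. Sox9fl/fl;Sox1Cre mutants were collected at E13.5 (A1 to A4) and at E12.5 (A9 to A12), each with Sox9+/+;Sox1Cre controls of the same age (A5 to A8 and A13 to A16). Sox9fl/fl;NestinCre mutants (A17 to A20) and Sox9+/+;NestinCre controls (A21 to A24) were collected at E13.5. All embryos, controls included, thus carried a Cre, and controls differed from mutants in having unfloxed Sox9 alleles. The study had already reported Neurod4 as raised in these Sox1Cre mutants at E13.5. Tests of Neurod4 in that set, and in the average that includes it, are therefore no independent evidence of its rise. The lines differ as models in that, by the study's account of its drivers, Sox9 in the cortical hem is a target of Sox1Cre and largely escapes NestinCre. By the same account NestinCre also starts later than Sox1Cre and reaches the dentate neuroepithelium, beside the hem, by E13.5. Region and time of deletion therefore cannot be told apart between the lines. Nothing in the labels says whether libraries of a group came from separate embryos, so the p-values measure only the spread between these libraries. The shallowest library held 16163560 reads on genes, the median library 23016925 and the deepest 49445219.

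Apical progenitors that leave the cycle of self-renewal switch on proneural factors of the basic helix-loop-helix (bHLH) family, which pair with E proteins, bind E-box sequences and start neuronal differentiation, while Notch signalling through HES repressors holds the neighbouring cells back. In the cortex Neurog2 and Neurog1 lie at the head of this cascade, Neurod4 is one of the bHLH genes acting after them, and Eomes (also called Tbr2) and Insm1 mark the intermediate progenitors that divide away from the ventricle. Btg2 is an antiproliferative gene of progenitors on their way to neurogenic division, Gadd45g is a stress-inducible gene switched on by proneural factors, and Elavl2 encodes an RNA-binding protein of early neurons. Their places in GRCm38 (GENCODE M21) are chr10:130268152-130280240 on the minus strand for Neurod4 (ENSMUSG00000048015), chr13:56250478-56252163 on the minus strand for Neurog1 (ENSMUSG00000048904), chr3:127633135-127635631 on the plus strand for Neurog2 (ENSMUSG00000027967), chr9:118478212-118486132 on the plus strand for Eomes (ENSMUSG00000032446). Those of the other 4 are chr1:134075170-134079120 on the minus strand for Btg2 (ENSMUSG00000020423), chr2:146221921-146225020 on the plus strand for Insm1 (ENSMUSG00000068154), chr13:51846678-51848468 on the plus strand for Gadd45g (ENSMUSG00000021453), chr4:91250763-91400785 on the minus strand for Elavl2 (ENSMUSG00000008489). Values are summed over all exons of a gene.

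Upstream sequences of Neurod4 and Neurog2 are shown because these were the only members whose change, averaged over the 3 mutant and control pairs of groups, passed the test. Both runs were taken from RefSeq promoters (GRCm38.p6), read 5′ to 3′ on the gene's strand and end before the first annotated exon. Capitals mark CACNAG, the N-box motif bound by HES repressors, or its reverse complement CTNGTG.
Neurod4, chr10:130280255-130280504, minus strand: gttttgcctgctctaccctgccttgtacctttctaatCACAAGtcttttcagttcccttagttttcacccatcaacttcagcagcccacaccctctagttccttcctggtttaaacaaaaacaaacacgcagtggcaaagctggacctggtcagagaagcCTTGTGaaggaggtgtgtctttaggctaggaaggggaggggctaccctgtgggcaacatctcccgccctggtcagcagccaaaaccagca
Neurog2, chr3:127632886-127633134, plus strand: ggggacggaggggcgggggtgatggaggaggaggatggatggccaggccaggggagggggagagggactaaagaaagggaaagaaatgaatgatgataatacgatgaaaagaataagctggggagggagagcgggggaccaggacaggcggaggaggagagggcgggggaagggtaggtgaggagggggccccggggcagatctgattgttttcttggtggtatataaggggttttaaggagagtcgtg
The Neurod4 run held 2 such matches, 1 on each strand, and the Neurog2 run held none. Promoter windows of 300 bases (250 before to 50 after the start) were found for 7 of the 8 members, Insm1 having no entry. They had 13 windows in all, as some genes have several starts whose windows can overlap. CACNAG occurred on either strand in 5 of these 13 (2 of Neurod4 and 1 each of Neurog2, Eomes and Gadd45g), against 42.5% of all 32851 windows. The Neurog2 match lay in the 50 bases after the start, which are not printed. The proneural E-box CAGATG was in none of the 13, against 17.2% of all windows, and the SOX-type motif ACAATG was in 1 of 13, that of Neurog1, against 12.6%. A match of letters describes the window and is not a binding site.

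Sox9 itself, measured first as a check of the labels, was lower in every mutant library than in every control of its set. By the study's account the first exon of Sox9 remains after recombination, so counts over all exons do not measure the deleted part. Normalized counts (reads divided by one size factor per library) averaged 3363 ± 376 in Sox1Cre mutants and 5578 ± 306 in controls at E13.5, 2260 ± 508 and 4522 ± 503 at E12.5, and 3134 ± 162 and 5152 ± 465 with NestinCre (SD, n = 4 each). The log2 changes, from limma on log2(normalized count + 1), were -0.74 (adjusted p = 0.00210), -1.02 (adjusted p = 6.28e-05) and -0.71 (adjusted p = 0.0297). In NestinCre libraries the call held without A23 but not without any other single library, where the adjusted p reached 0.110, and it was also lost with log2 Xist, an RNA of the inactive X chromosome, as a covariate and without A1 and A18 together (adjusted p up to 0.0966).

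Per kilobase of exon and over all 24 libraries, Neurog2 was the most abundant member at 1600 normalized counts, followed by Btg2 at 765, Eomes at 704, Gadd45g at 378.0, Elavl2 at 309, Insm1 at 164, Neurog1 at 121 and Neurod4 at 44.4. Neurod4 was thus the scarcest of the 8 and also the most variable, with a 17.9-fold range from 21.9 normalized counts in A13 (15 reads) to 392 in A1 (429 reads). Btg2 varied least, 1.33-fold from 1834 to 2447. Only Eomes shared exon bases with another annotated gene, 118 bases with Gm33460 on the opposite strand, and the strand setting of the counting is not given in the sources used here. The plot of normalized counts shows all 8 members in all libraries.

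**Figure D1:**
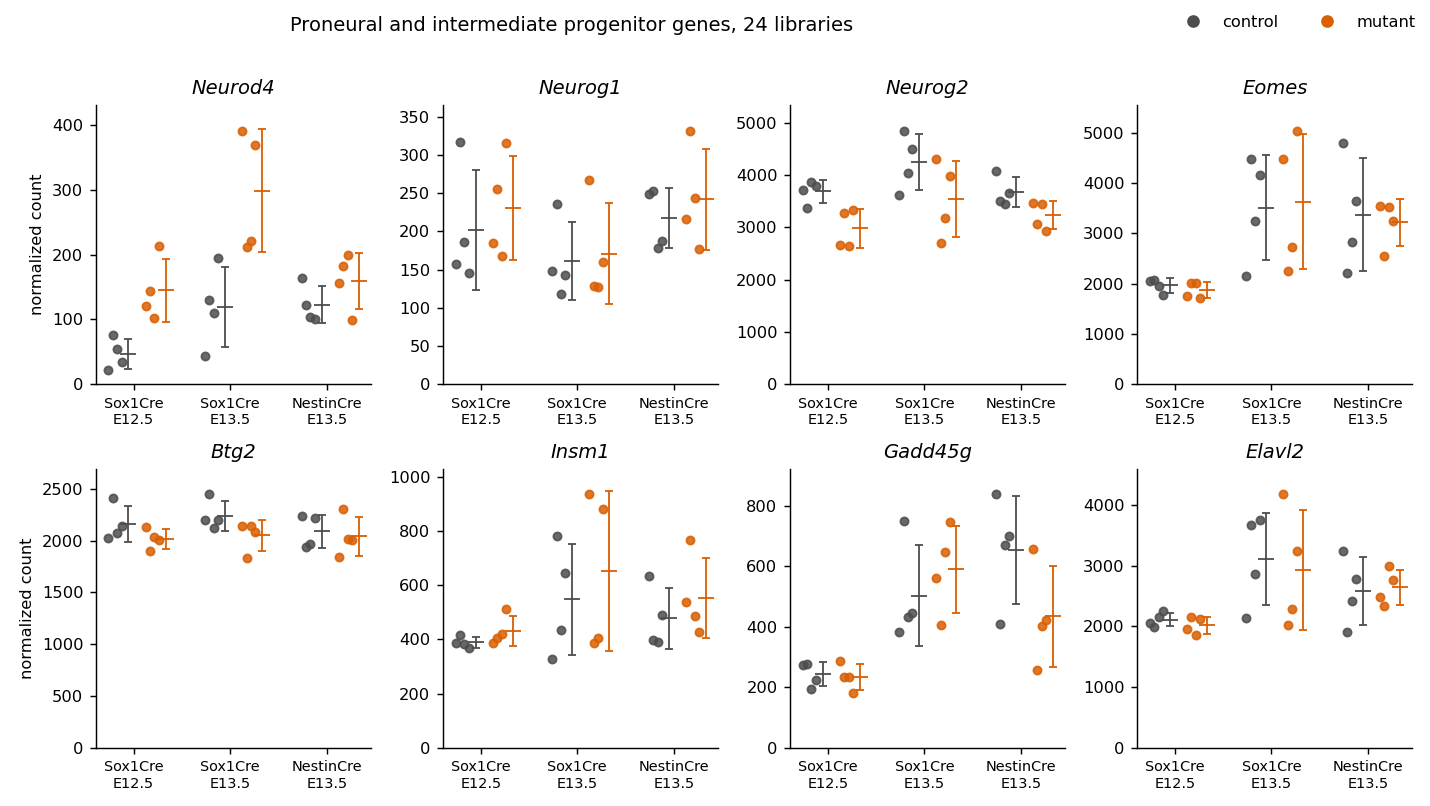
Normalized counts of the 8 genes (vertical axes, linear, from 0) in the 24 libraries, by Cre line and age. Each point is a library, and the bar beside each group gives the mean and SD of 4 libraries. Neurod4 in Sox1Cre mutants lay above every control of the same age, whereas Eomes, Insm1 and Elavl2 spread widely in both mutants and controls at E13.5.

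Neurod4 was higher in Sox1Cre mutants at both ages. At E13.5 the 4 mutants had 392, 212, 222 and 369 normalized counts (A1 to A4) and the 4 controls 44.2, 129, 110 and 195 (A5 to A8). At E12.5 the values were 120, 143, 103 and 213 in mutants (A9 to A12) and 21.9, 75.6, 53.9 and 34.5 in controls (A13 to A16). With NestinCre they were 156, 182, 200 and 99.6 in mutants (A17 to A20) and 164, 122, 103 and 101 in controls (A21 to A24). Hence all 4 Sox1Cre mutants exceeded all 4 controls at each age, whereas the NestinCre mutant A20 was the lowest library of its set and only A18 and A19 exceeded all controls. Among the other 7 members, only Neurog2 at E12.5 separated mutants from controls. Groups did not overlap for 1 of 8 members in Sox1Cre at E13.5 (5.06% of all genes tested), for 2 of 8 in Sox1Cre at E12.5 (10.3%) and for 0 of 8 in NestinCre (4.98%).

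The mean of Neurod4 was 2.5-fold higher in mutants at E13.5 (299 ± 94.96 against 119 ± 62.0), 3.12-fold higher at E12.5 (145 ± 48.3 against 46.5 ± 23.5) and 1.3-fold higher with NestinCre (159 ± 43.7 against 123 ± 29.0; SD, n = 4 each). On the log2 scale the E12.5 change was 1.71 ± 0.39 (SE) with a limma adjusted p of 0.0417, the E13.5 change 1.44 ± 0.39 with 0.0887, and the NestinCre change 0.36 ± 0.39 with 1. Exact two-sided permutation p-values, unadjusted and among 24 such tests of members, were 0.0286 at both ages with Sox1Cre, the smallest that 4 libraries against 4 allow, and 0.314 with NestinCre. The rise at E12.5 sat near its threshold, with adjusted p between 0.0262 and 0.184 on leaving out single libraries: it was kept without A11 or A14 and lost without A9, A10, A12, A13, A15 or A16. It passed in 4 of 9 other settings and was lost with no filter, after quantile normalization, with log2 Xist as a covariate, with only these 8 libraries and with edgeR (adjusted p up to 0.103). At E13.5 the change passed in 1 of 8 fits without 1 library (A8, adjusted p = 0.0390; up to 0.291 in the others) and in 1 of 10 other settings (DESeq2, adjusted p = 0.02; up to 0.389 in the others). DESeq2 is also the method of the study, which reported Neurod4 as raised in these same libraries. In bulk RNA, more cells with a transcript and more transcript per cell cannot be told apart.

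Averaged over the 3 sets, which share no library, Neurod4 rose by 1.17 ± 0.23 on the log2 scale (95% interval 0.70 to 1.64, limma adjusted p = 0.00516). This call held in each of the 24 fits without 1 library and in each of 10 other settings, with adjusted p between 2.94e-05 and 0.0135. However, 1 of the 10, only the libraries compared, takes all 24 here and so repeats the main fit. Of the 16454 genes tested, 70 had a larger average rise. The average includes the E13.5 Sox1Cre set, in which the study had already reported this rise. The change in Sox1Cre at E13.5 exceeded that in NestinCre by 1.082 (95% interval -0.07 to 2.23), which did not pass (adjusted p = 0.645). The plot of log2 changes sets these values beside those of the other 7.

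**Figure D2:**
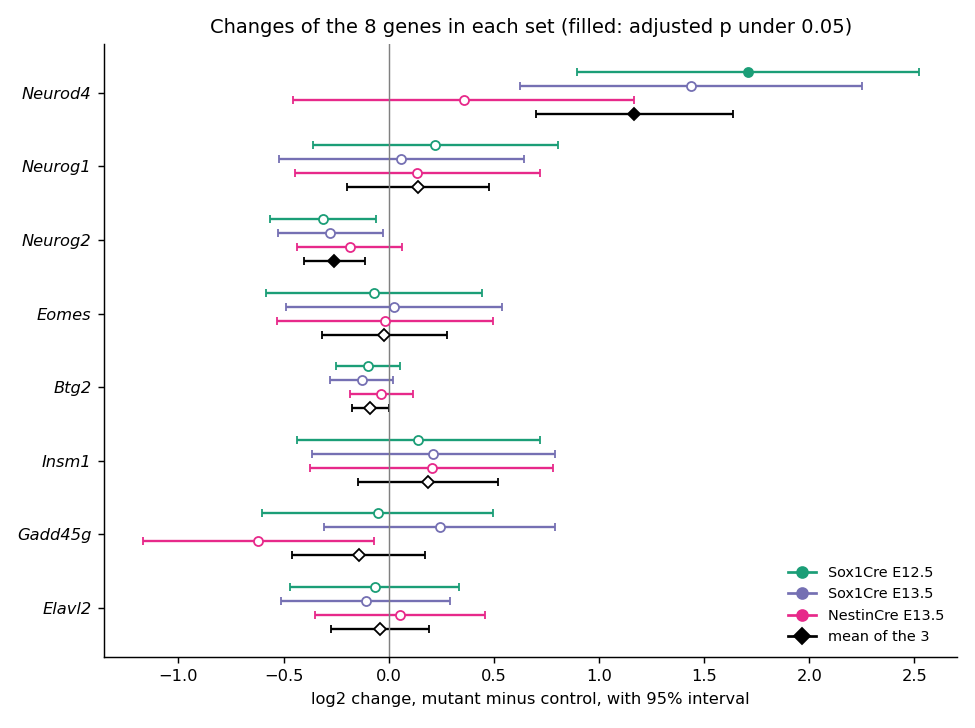
Log2 change of each of the 8 genes, mutant minus control (horizontal axis), in Sox1Cre at E12.5 and E13.5, in NestinCre at E13.5 and averaged over the 3, from limma with 95% intervals; 4 libraries per group. Filled symbols have an adjusted p under 0.05, which only Neurod4 (E12.5 and the average) and Neurog2 (the average) reached.

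Xist, the RNA that coats the inactive X chromosome in female cells, was unevenly spread over the groups. It was 3526 normalized counts or more in 11 libraries and 6.41 or less in the other 13. All 4 Sox1Cre controls at E12.5 were high and all 4 at E13.5 were low, whereas each mutant group had 2 of each. All 4 Sox1Cre mutants exceeded all 4 controls in Neurod4 at each age. It therefore had to stay apart among libraries of like Xist state, as did Neurog2 at E12.5, and this says nothing of Xist. At E13.5 the 2 low mutants had 369 and 392 Neurod4 counts against 44.2 to 195 in the 4 controls. At E12.5 the 2 high mutants had 103 and 143 against 21.9 to 75.6. With NestinCre the 2 low mutants had 156 and 200 against 101 to 164 in 3 controls, and the 2 high mutants had 182 and 99.6, on either side of the 1 high control, A23, at 103. Neurod4 was not alone in being apart, since 2 of 8 members were so among low libraries at E13.5 (17.1% of all genes tested). The other was Insm1 with 881 and 935 against 327 to 782. Eomes had 4472 and 5041 there against 2148 to 4484. Among high libraries at E12.5 2 of 8 were apart (21.4%), Neurog2 being lower in mutants, and among low NestinCre libraries 1 of 8 (19.3%), again Neurog2, which was lower. High NestinCre libraries gave 4 of 8 (61.1%), Btg2 and Insm1 higher and Neurog2 and Gadd45g lower, against the 1 control. With log2 Xist as a covariate the limma adjusted p for Neurod4 was 0.0546 at E13.5, 0.103 at E12.5 and 0.00254 for the average.

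Neurog2, by contrast, had lower means in mutants of all 3 sets. In Sox1Cre at E12.5 the 4 mutants had 2663, 3282, 2654 and 3338 normalized counts and the 4 controls 3717, 3364, 3880 and 3799. In Sox1Cre at E13.5 the mutants had 4314, 2706, 3183 and 3979 and the controls 3623, 4857, 4048 and 4503. In NestinCre the mutants had 3462, 3075, 3455 and 2941 and the controls 4077, 3501, 3447 and 3668. The E12.5 groups were thus apart by a narrow margin, the E13.5 Sox1Cre groups overlapped, with A2 and A3 below all controls, and the NestinCre groups overlapped only through the control A23. The log2 changes were -0.28 (adjusted p = 0.364), -0.31 (adjusted p = 0.257) and -0.18 (adjusted p = 0.928) in Sox1Cre at E13.5, Sox1Cre at E12.5 and NestinCre. Their average fell by 0.26 ± 0.07 (SE; limma adjusted p = 0.0495). The ratios of mutant to control means were 0.833, 0.809 and 0.880 in the same order. That call was kept without A1, A4, A5, A10, A12 or A14 and lost without any other single library (adjusted p up to 0.0901), with no filter (0.0778), after quantile normalization (0.0613) and with edgeR (0.0504).

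As a description, Neurod4 per 100 Neurog2 counts averaged 8.29 ± 1.09 in Sox1Cre mutants and 2.73 ± 1.27 in controls at E13.5, 4.78 ± 1.10 and 1.28 ± 0.72 at E12.5, and 4.90 ± 1.19 and 3.32 ± 0.56 with NestinCre (SD, n = 4 each). The Sox1Cre groups did not overlap in this ratio at either age. At E12.5 this had to be so, since all 4 mutants were higher in Neurod4 and lower in Neurog2 than every control. Against Eomes the Sox1Cre groups were also apart, at 8.40 ± 0.88 and 3.25 ± 1.10 per 100 at E13.5 and 7.88 ± 3.16 and 2.36 ± 1.10 at E12.5. In NestinCre libraries both ratios overlapped. The plot of Neurod4 against Eomes and Neurog2 shows mutants lying above controls of similar Eomes level in the Sox1Cre sets.

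**Figure D3:**
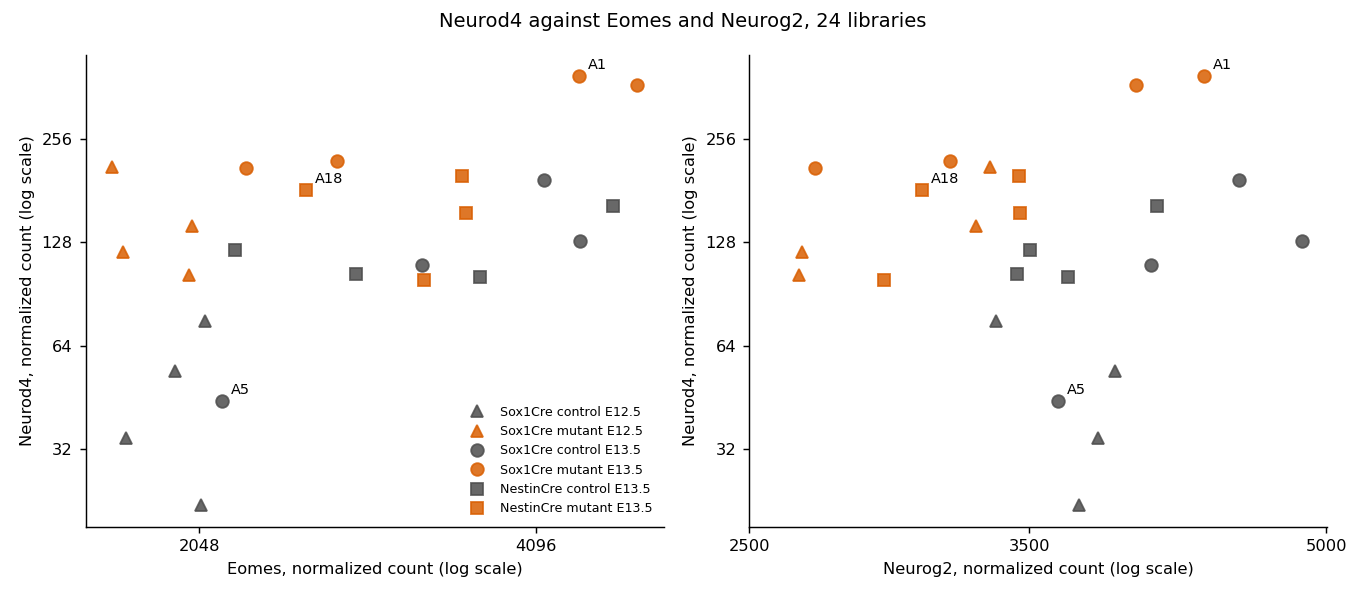
Neurod4 (vertical axes, log scale) against Eomes and Neurog2 (horizontal axes, log scale) in normalized counts, 1 point per library, 24 libraries. Symbols give Cre line and age, and colour gives mutant or control; A1, A5 and A18 are labelled. E13.5 Sox1Cre mutants overlapped their controls in Eomes, at 2256 to 5041 against 2148 to 4484, but lay at 212 to 392 Neurod4 counts against 44.2 to 195.

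The remaining 6 members showed no change past the threshold in any set or in the average. Eomes was the clearest case of overlap: 4472, 2256, 2722 and 5041 normalized counts in Sox1Cre mutants at E13.5 against 2148, 4484, 3238 and 4157 in controls, a log2 change of 0.02 (95% interval -0.49 to 0.54). A1 and A4 were high and A2 and A3 low among the mutants, and A5 was low among the controls. Its average over the 3 sets was -0.02 (95% interval -0.32 to 0.27), so a change of the size of Neurod4's lay outside the interval. Insm1, a zinc-finger repressor of intermediate progenitors, followed the same libraries, with 935, 388, 405 and 881 in mutants against 327, 782, 435 and 644 in controls at E13.5, and its average was 0.19 (95% interval -0.15 to 0.52). Leaving out single libraries turned the E13.5 change of Eomes from 0.02 to -0.10 without A1, -0.16 without A4 and -0.19 without A5, and that of Insm1 from 0.21 to -0.0007 without A1 and -0.0071 without A5. Elavl2 averaged -0.04 (95% interval -0.27 to 0.19), ranging from 1853 to 4183 normalized counts over the 24 libraries.

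Neurog1, the close relative of Neurog2, ranged from 118 in A7 to 332 in A18 and averaged a log2 change of 0.14 (95% interval -0.20 to 0.48). Without A18 the NestinCre change of Neurog1 turned from 0.14 to -0.03, and the E13.5 Sox1Cre change turned from 0.06 to -0.18 without A1 and to -0.07 without A7. Btg2 averaged -0.09 (95% interval -0.17 to -0.0003), with an unadjusted limma p of 0.0493 that became 0.320 on adjustment. Gadd45g had its largest difference in NestinCre, where mutants had 659, 257, 402 and 421 normalized counts and controls 839, 408, 672 and 699. There A18 and A19 lay below all controls and the groups overlapped, for a log2 change of -0.62 ± 0.26 (SE; unadjusted p = 0.0287, limma adjusted p = 0.695). In Sox1Cre at E13.5 the Gadd45g change was 0.24, and the difference of 0.86 between the lines did not pass (adjusted p = 0.506).

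Over the members as a group, 0 of 8 passed in Sox1Cre at E13.5 (0.924% of all genes tested), 0 of 8 in NestinCre (0.0669%), 1 of 8, Neurod4, in Sox1Cre at E12.5 (0.723%) and 2 of 8, Neurod4 and Neurog2, in the average (2.52%). At an unadjusted limma p under 0.05 there were 2 of 8 members in Sox1Cre at E13.5 (Neurod4 and Neurog2; 11.74% of all genes tested), 1 of 8 in NestinCre (Gadd45g; 6.467%), 2 of 8 in Sox1Cre at E12.5 (Neurod4 and Neurog2; 13.47%) and 3 of 8 in the average (Neurod4, Neurog2 and Btg2; 15.55%). In the same order DESeq2 called 1 of 8 (2.18% of genes), 0 of 8 (0.225%), 1 of 8 (1.79%) and 2 of 8 (4.33%). The median log2 change of the 8 was 0.04, 0.02, -0.06 and -0.03 in these comparisons, against -0.0046, -0.0021, 0.0020 and -0.0013 over all genes tested. Differences between the Cre lines at E13.5 passed for 0 of 8 members (0.0425% of genes), and differences between the ages in the Sox1Cre effect for 0 of 8 (0%). Point estimates had 1 sign in all 3 sets for 5 of 8 members, positive for Neurod4, Neurog1 and Insm1 and negative for Neurog2 and Btg2, against 32.6% of all genes. The signs of Neurog1, Insm1 and Btg2 each turned in at least 1 set when single libraries were left out.

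Within groups, Neurod4 moved with most of the other members. With group means removed from log2(normalized count + 1), Pearson's r over the 24 libraries was 0.67 with Insm1 (permutation p = 0.00075, adjusted over 7 relations 0.00525) and 0.63 with Neurog1 (permutation p = 0.00607, adjusted 0.0120). It was 0.58 with Neurog2 and 0.57 with Elavl2 (permutation p = 0.00521 and 0.00688, both adjusted 0.0120) and 0.52 with Eomes (permutation p = 0.0167, adjusted 0.0234). It was 0.34 with Btg2 and 0.08 with Gadd45g (permutation p = 0.141 and 0.742, adjusted 0.164 and 0.742). Spearman's rho was 0.67, 0.73, 0.66, 0.58, 0.52, 0.36 and 0.02 in the same order, with adjusted permutation p of 0.00714, 0.00714, 0.00742, 0.0194, 0.0330, 0.133 and 0.922. Without A5 and A13, the libraries farthest from the median of Neurod4, r was 0.67, 0.72, 0.59, 0.50, 0.47, 0.31 and 0.02. Thus Neurog2, whose average change was opposite in sign, still varied together with Neurod4 from library to library.

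The genes most like Neurod4 over the 24 libraries, by the same r among 11830 genes averaging at least 100 normalized counts, were Lonrf2 (0.82), Slco3a1 (0.79), Fsd1 (0.78), Clstn1 (0.77) and Cyfip2 (0.77). Insm1 came 38th in this order, Neurog1 72nd and Eomes 285th. Those most like Eomes were Mllt11 (0.99), Mapt (0.97), Snap25 (0.96), L1cam (0.96) and Celsr3 (0.96), among them the neuronal cytoskeletal gene Mapt and the synaptic gene Snap25. Elavl2, at 0.88, was 112th for Eomes. All points share library and dissection, so these values describe how libraries differ.

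Libraries also differed in neuronal transcripts. The 10 postmitotic neuron genes summed to 54679 and 55575 normalized counts in the mutants A1 and A4 but to 33900 and 38291 in A2 and A3, and to 33995 in the control A5 against 39630 to 53130 in A6 to A8. The group means of this sum, 45611 ± 11139 for mutants against 43990 ± 8749 for controls (SD, n = 4 each), overlapped at E13.5, and 0 of the 10 genes passed there, in NestinCre or at E12.5. Point estimates were positive for 8 of 10 in Sox1Cre at E13.5 (median log2 change 0.18), 8 of 10 in NestinCre (0.12) and 5 of 10 in Sox1Cre at E12.5 (-0.03). Their most abundant member, Map2, was 14609 ± 1325 among E13.5 mutants against 15579 ± 1433 among controls (SD, n = 4 each). A1 stood apart in tissue markers, with a choroid plexus sum of 7762 against 29100 to 88404 in the other 7 libraries of its set (most abundant gene Ttr, 5266 in A1) and a cortical hem sum of 8598 against 10625 to 17746. Its meningeal sum of 10755 and endothelial sum of 4009 were the lowest of the mutants in its group. Controls had 18120 to 26064 and 8256 to 9208. Without A1 the Neurod4 change at E13.5 was 1.29, and with both A1 and A18 left out the average was 1.09 (limma adjusted p = 0.0135).

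Markers of other tissues were summed in each library. Ventral telencephalon genes, 8 in all with Dlx1 and Gad2 among them, summed to 683 in A18 and to between 21.8 and 115 in the other 23 libraries; Dlx1 was 230.3 in A18 and at most 22.3 elsewhere. Over all libraries Lhx6 was the most abundant of these 8, of which 4 were tested, and Dlx1 was at 0 in 6 libraries. Dorsal pallium genes (Lhx2 the most abundant of 6) summed to 25076 ± 4188 in E12.5 mutants and 30267 ± 3523 in controls, and cortical hem genes (Rspo3 the most abundant of 7) to 23057 ± 3144 and 20478 ± 4526 (SD, n = 4 each). None of the 6 or 7 passed in any set. Changes were positive for 0 of 6 dorsal and 7 of 7 hem genes at E12.5, for 4 of 6 and 1 of 7 in Sox1Cre at E13.5, and for 5 of 6 and 4 of 7 in NestinCre, so the lists did not keep 1 direction across the ages. Choroid plexus genes (Ttr the most abundant of 6) summed to 33480 ± 9663 among E12.5 mutants against 23030 ± 5626 (SD, n = 4 each), with 0 past the threshold. Endothelial genes (Kdr the most abundant of 5) were lower in point estimate for 5 of 5 in every set, with 0 past the threshold. In each set the mutant sums spanned the whole control range, with a low value in A1, A10 or A19. They ran from 4009 (A1) to 10237 in Sox1Cre at E13.5 against 8256 to 9208 in controls. At E12.5 they ran from 4599 (A10) to 9642 against 7936.5 to 9025, and in NestinCre from 5620 (A19) to 9058 against 7913 to 8921. The meningeal (Col1a2 the most abundant), erythroid (Hbb-y) and diencephalic (Lhx9) lists had 0 past as well. Meningeal genes had a positive change for 0 of 6 in Sox1Cre at E13.5 (median log2 change -0.24) and for 1 of 6 in each of the other 2 sets. Of Cajal-Retzius markers 1 of 8 fell in Sox1Cre at E13.5 (0.924% of all genes passed there in either direction). It was Ebf3, by 0.32 on the log2 scale (adjusted p = 0.0352). On leaving out single libraries its call was kept only without A1 or A2 (adjusted p up to 0.127). The call was also lost with no filter, the Xist covariate and only these 8 libraries. Changes in Sox1Cre at E13.5 were positive for 2 of the 8 markers (median log2 change -0.10), Reln, the most abundant, averaging 8777 ± 2933 against 8325 ± 2384 (SD, n = 4 each). The same markers had positive changes for 7 of 8 in NestinCre (median log2 change 0.08) and for 3 of 8 in Sox1Cre at E12.5 (-0.03). The part of these tissues in the Neurod4 result was not tested.

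Among 8 other bHLH neurogenic factors, of which 7 were tested, none rose with Neurod4 and 1 fell, in Sox1Cre at E13.5. Of all genes tested 0.924% passed there in either direction, 0.723% in Sox1Cre at E12.5 and 0.0669% in NestinCre. Nhlh1, a bHLH gene of newborn neurons, had 2046, 1364, 1505 and 2030 normalized counts in Sox1Cre mutants at E13.5 and 2505, 3038, 2473 and 3064 in controls. All 4 mutants lay below all 4 controls, and the log2 change was -0.69 ± 0.14 (SE; limma adjusted p = 0.0138). It passed without any single library except A2, A3 or A6 (adjusted p up to 0.0619) and in the other settings except the Xist covariate and the fit of only these 8 libraries (adjusted p up to 0.171). At E12.5 Nhlh1 also lay lower in 4 of 4 mutants (1341 ± 153 against 1710 ± 68.7; log2 change -0.36, adjusted p = 0.260), while in NestinCre the groups overlapped (log2 change -0.06, adjusted p = 1). Its average fell by 0.37 on the log2 scale (adjusted p = 0.0129) and passed in each of the 24 fits without 1 library. Neurod1, Neurod2, Neurod6, Nhlh2, Bhlhe22 and Neurog3 did not pass, and Atoh1 had at most 8.92 normalized counts and was not tested. The median log2 change of the 7 was 0.03 in Sox1Cre at E13.5, -0.01 in NestinCre and -0.23 in Sox1Cre at E12.5.

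Of 12 other genes of intermediate progenitors and early differentiation, Nhlh1 was the 1 that fell, in Sox1Cre at E13.5 (0.924% of all genes passed there in either direction). None rose in any set. The Notch ligand gene Dll1, a proneural target, averaged 2153 ± 152 and 2267 ± 121 at E13.5 in Sox1Cre mutants and controls (SD, n = 4 each), and Neurod1, a bHLH gene after Neurog2, 1090 ± 519 and 1048 ± 417. Dll1 ran the other way elsewhere, from 2886 to 3591 in E12.5 mutants against 2514 to 3114 in controls. In NestinCre it ran from 2105 to 2643 in mutants against 2039 to 2535. The list's median log2 change was -0.06, -0.03 and -0.03 in Sox1Cre at E13.5, NestinCre and Sox1Cre at E12.5. Partners and inhibitors of proneural factors (11 genes: E proteins, ID, HES and HEY genes) had 0 past the threshold in every set. Changes were positive for 6 of 11 in Sox1Cre at E13.5, 6 of 11 in NestinCre and 4 of 11 in Sox1Cre at E12.5. Tcf4, an E protein gene and the most abundant of them, averaged 31308 ± 4515 in E13.5 Sox1Cre mutants against 35847 ± 2483 and 20042 ± 3138 in E12.5 mutants against 26608 ± 1904 (SD, n = 4 each). In NestinCre it overlapped, at 22550 to 33352 in mutants against 23962 to 32605 in controls. At E13.5 the HES gene Hes1, a Notch target, was 1712 ± 179 in Sox1Cre mutants against 1589 ± 126. At E12.5 it ran lower, from 1148 to 1569 in mutants against 1346 to 1684 in controls. In NestinCre it ran from 1662 to 1764 against 1496 to 1735.

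Of 12 apical progenitor genes, 4 fell in Sox1Cre at E13.5 (Notch1, Sox9, Hopx and Vim; 0.924% of all genes passed in either direction), 3 at E12.5 (Sox9, Hopx and Notch1; 0.723%) and 1 with NestinCre (Sox9; 0.0669%), and none rose. Sox9, the deleted gene, is in each of these counts and is the whole of the NestinCre one. The study had already reported Notch1, Hopx and Vim as lower in the E13.5 Sox1Cre mutants of these data. This list was made with earlier results known, so its counts are no independent evidence about apical progenitor genes. Notch1, the receptor gene upstream of HES repressors, was 4361 ± 346 in mutants and 7753 ± 1126 in controls at E13.5, for a log2 change of -0.82 (adjusted p = 0.000201) that held without any single library. At E12.5 its change was -0.45 (adjusted p = 0.0417, between 0.0579 and 0.114 on leaving out any single library, and also lost with no filter and after quantile normalization), and with NestinCre it was 5127 ± 542 against 6979 ± 1144 (SD, n = 4 each). The NestinCre change of Notch1 was -0.50 to -0.40 over the other settings. It passed with DESeq2 (adjusted p = 0.0271) and in limma without A23 (adjusted p = 0.0493), but in no other fit (adjusted p up to 0.747). Hopx, a marker of neural stem cells, changed by -0.60 at E13.5 (adjusted p = 0.0451, kept only without A1 or A7 and up to 0.144, and lost in 4 of 10 other settings, up to 0.239) and by -0.63 at E12.5 (adjusted p = 0.0406, kept only without A11 or A15 and up to 0.134, and lost in 3 of 9 other settings, up to 0.117). Vim, an intermediate filament gene of radial glia, changed by -0.26 at E13.5 (adjusted p = 0.0289, up to 0.117, and lost without A3, A5, A6 or A7). That call was also lost after quantile normalization, with the Xist covariate and with only these 8 libraries, where the change was as small as -0.16 (adjusted p up to 0.482). Averaged over the 3 sets, Notch1 and Hopx fell by 0.57 and 0.51 (adjusted p = 6.22e-06 and 0.000920), in each of the 24 fits without 1 library. Vim also passed in the average, with changes of -0.16 to -0.13 over the other settings. Its call was lost without A3, A9, A11, A16, A19, A20, A21 or A22 (limma adjusted p up to 0.0576). The same held with no filter and after quantile normalization (limma adjusted p up to 0.161). The plot of related genes shows these lists side by side.

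**Figure D4:**
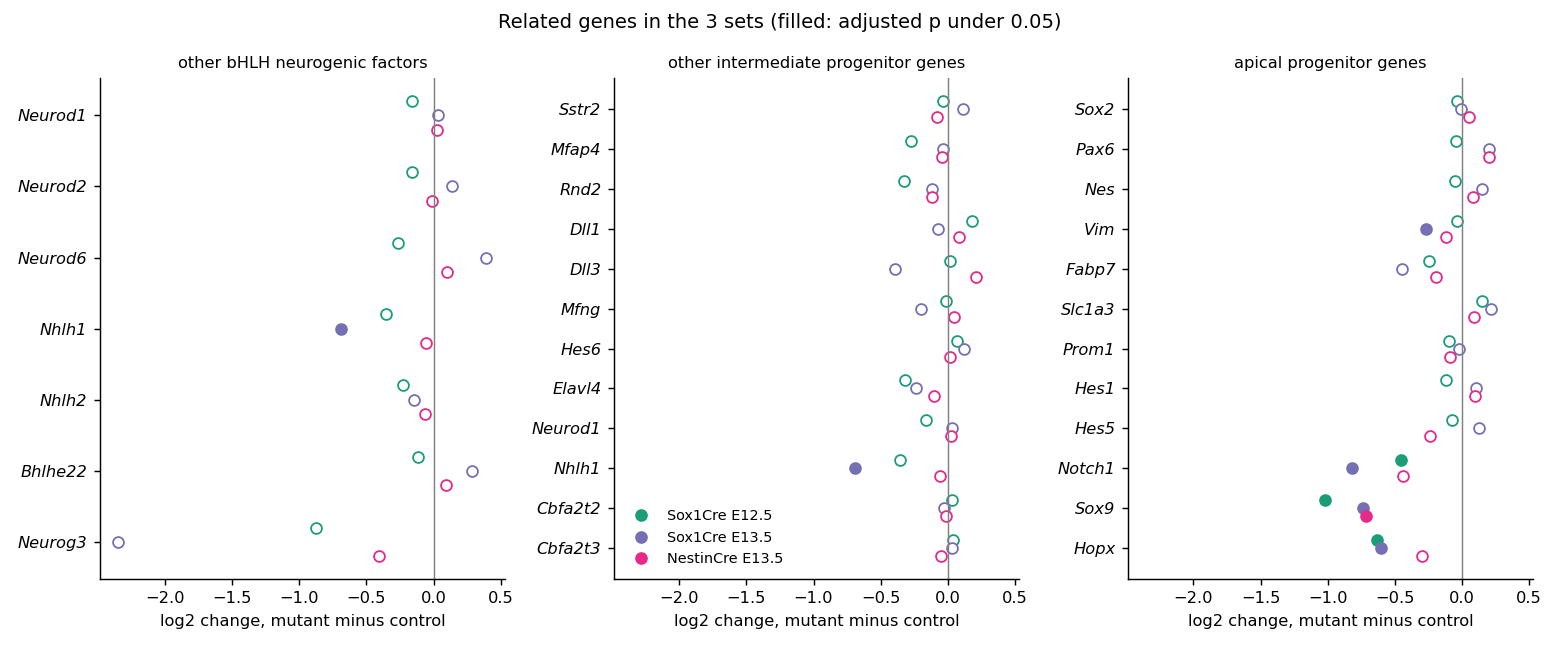
Log2 change, mutant minus control (horizontal axes), of other bHLH neurogenic factors, other intermediate progenitor genes and apical progenitor genes in the 3 sets, 4 libraries per group. Filled points have a limma adjusted p under 0.05: Nhlh1 in the first and second panels (which both list it) and Notch1, Sox9, Hopx and Vim in the third.

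Across ages, 3 of 8 members rose from E12.5 to E13.5 in Sox1Cre controls, where 11.5% of all genes passed: Neurod4 by 1.31 (adjusted p = 0.0346), Gadd45g by 1.01 (adjusted p = 0.0178) and Eomes by 0.79 (adjusted p = 0.0431) on the log2 scale. In Sox1Cre mutants 2 of 8 rose, where 25.9% passed: Gadd45g by 1.31 (adjusted p = 0.00151) and Eomes by 0.88 (adjusted p = 0.0125), with Neurod4 at 1.04 (adjusted p = 0.0552). Eomes went from 1961 ± 142 to 3507 ± 1048 in controls and from 1872 ± 163 to 3623 ± 1343 in mutants, and Gadd45g from 243 ± 40.3 to 504 ± 166 and from 235 ± 42.4 to 590 ± 145 (SD, n = 4 each). In controls these ages cannot be told apart from the Xist state, and with the Xist covariate 0 of 8 members and 0% of all genes passed there, so that fit says nothing of the members. In mutants 3 of 8 passed with it, Neurod4, Eomes and Gadd45g, against 26% of all genes. In controls Eomes was kept without A5 alone (adjusted p up to 0.147), Gadd45g was lost without A6 or A15 (up to 0.0803) and Neurod4 was kept only without A5, A14 or A15 (up to 0.137); in mutants only Eomes lost its call, without A4 (0.0560).

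Ordered by group mean, Neurod4 was lowest in E12.5 Sox1Cre controls at 46.5 normalized counts, then 119 in E13.5 Sox1Cre controls, 123 in NestinCre controls, 145 in E12.5 Sox1Cre mutants, 159 in NestinCre mutants and 299 in E13.5 Sox1Cre mutants. The 4 middle groups overlapped one another and the lowest overlapped E13.5 Sox1Cre controls, whereas the E13.5 Sox1Cre mutants (212 to 392) lay above every library outside the Sox1Cre mutants and touched the E12.5 mutants only through A12 (213). Neurod4 in 3 of 4 E12.5 mutants thus lay within the range of E13.5 Sox1Cre controls. Over all 4 E12.5 mutants the other 7 members had log2 changes from -0.31 (Neurog2) to 0.22 (Neurog1) against E12.5 controls, none past the threshold. Of the neuron genes 8 of 10 rose with age in Sox1Cre mutants (25.9% of all genes tested passed in either direction) and 8 of 10 in controls (11.5%). Their median log2 changes were 1.18 and 0.98. In controls age cannot be told apart from the Xist state, and with the Xist covariate 0% of all genes passed there.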

How the data were processed

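RNA from dissected archicortex of E12.5 and E13.5 mouse embryos was sequenced in 24 libraries, 4 per group, and libraries were grouped by the genotype and age in their labels. According to the submitters' notes and the study's methods, the authors trimmed adaptors (Trimmomatic 0.36), aligned reads to GRCm38 (STAR 2.5.2a), estimated gene counts (RSEM 1.2.31) and scaled the counts by DESeq2 size factors. The signal as deposited is the rounded gene count divided by 1 size factor per library, not logged and not pooled. Values were whole multiples of each library's step (100% within a tolerance of 0.001), so whole reads were recovered for edgeR and DESeq2; in A3, whose step is close to 1, this could be checked less well.

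Genes reaching 10 in 4 or more libraries were kept (16454). The log2(value + 1) data were fitted by limma 3.58.1 in R 4.3.3 with 6 group means (eBayes with a trend, 18 residual degrees of freedom), with Benjamini-Hochberg adjustment over all genes tested in each comparison and a threshold of 0.05. The added 1 makes log2 changes of scarce genes too small. The script was tested on simulated data. Single members were also compared by exact permutation over the 35 splits of 8 libraries, and Neurod4 was related to the other members by 100000 permutations within groups. Alternatives were pseudocounts of 0.5 and 5, no filter, quantile normalization, log2 Xist as a covariate, array weights, only the libraries compared, edgeR 4.0.16, DESeq2 1.42.0, leaving out each library and, chosen after seeing the data, leaving out A1 and A18 together. Members and lists were chosen with earlier results of these data known. A gene left out of these lists is not reported here. Sox9, all members, the genes of each list past the threshold (otherwise the most abundant) and the 5 genes most like Neurod4 and Eomes are named; others named beside them were chosen after their values were seen. Gene names and exon lengths came from GENCODE M21. Reads carry no molecular identifiers, so read numbers cover counting error only.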

Additional observations from a re-analysis of the deposited data

Results flagged for a closer look

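Every group of 4 libraries was searched for a value far from the other 3 (Dixon's test of the gap against the group's range, at the 95% level), over the 8 members, 14 other genes named in the text and the summed lists. Chance marks about 1 in 20 groups, and 11 of 216 were marked, none of them a member. Ventral telencephalon genes summed to 683 in A18, with Dlx1 at 230.3. In Sox1Cre mutants at E12.5, A12 had the highest cortical hem sum, 27749, A10 the lowest endothelial sum, 4599, and A11 the highest erythroid sum, 199210. Among E12.5 controls, A15 had the highest meningeal sum, 33288, and A14 the lowest Map2, 12176. Among E13.5 Sox1Cre controls A5 had the highest Dll1, 2447. Among NestinCre controls A21 had the lowest Hopx, 265, and A22 the lowest sums of bHLH partners and inhibitors, 57484, and of diencephalic genes, 2170.1. Neurod4 in these libraries was 182 in A18, 213 in A12, 143 in A10 and 103 in A11 among mutants, and 53.9 in A15, 75.6 in A14, 44.2 in A5, 164 in A21 and 122 in A22 among controls. The part of these tissues in its values was not tested.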

How the results depend on the processing

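Counts of members past the threshold moved as follows. In Sox1Cre at E13.5 the count of 0 became 1 with array weights (Neurog2) and 1 with DESeq2 (Neurod4), and ranged from 0 to 1 on leaving out single libraries. In Sox1Cre at E12.5 the count of 1 became 0 with no filter, quantile normalization, the Xist covariate, only its own libraries and edgeR, 2 with array weights, and 0 to 1 on leaving out libraries. In the average the count of 2 became 1 with no filter, quantile normalization and edgeR, and 1 to 2 on leaving out libraries. Between ages, the 3 members in controls became 1 with no filter, 0 with the Xist covariate, 2 with quantile normalization and with only their own libraries, and 4 with array weights and with DESeq2, which added Elavl2 (0 to 4 on leaving out libraries). The 2 in mutants became 3 with a pseudocount of 5, the Xist covariate and only their own libraries, each adding Neurod4, 3 with array weights, adding a fall of Neurog1, and 4 with edgeR and with DESeq2, adding Neurod4 and Elavl2 (1 to 5).

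Over all genes, 152 passed in Sox1Cre at E13.5 against 962 with array weights, 44 with only its own libraries, 358 with DESeq2 and 509 without A1 and A18 (90 to 510 on leaving out libraries, highest without A1). In NestinCre 11 passed against 5 with no filter, 2 with the Xist covariate, 17 with array weights, 5 with edgeR, 37 with DESeq2 and 3 without A1 and A18 (2 to 7). In Sox1Cre at E12.5 119 passed against 577 with array weights, 76 with only its own libraries and 294 with DESeq2 (50 to 139).

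Neurod4 and Neurog2 kept their sign in all 3 sets and the average under every setting run, while small changes of other members reversed. With array weights the E13.5 Sox1Cre changes were -0.19 (Neurog1), -0.30 (Eomes) and -0.25 (Insm1), that of Gadd45g at E12.5 was 0.0474 and the average of Insm1 -0.0182. Without A1 and A18 they were -0.18 (Neurog1), -0.10 (Eomes) and -0.0007 (Insm1) in Sox1Cre at E13.5 and -0.0289 (Neurog1) and 0.0880 (Eomes) in NestinCre. The Xist covariate gave 0.0292 (Elavl2, Sox1Cre E13.5), 0.0792 (Eomes, NestinCre), -0.0465 (Insm1, E12.5) and 0.0186 (Eomes, average). Leaving out single libraries gave, in Sox1Cre at E13.5, -0.18 to 0.26 (Neurog1), -0.19 to 0.23 (Eomes), -0.0071 to 0.42 (Insm1) and -0.30 to 0.0493 (Elavl2). In NestinCre it gave -0.0289 to 0.27 (Neurog1), -0.20 to 0.17 (Eomes), -0.0939 to 0.0124 (Btg2) and -0.0838 to 0.17 (Elavl2), at E12.5 -0.15 to 0.0629 (Gadd45g), and in the average -0.0936 to 0.0458 (Eomes) and -0.10 to 0.0120 (Elavl2). The cause of these shifts was not tested.

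Of 696 recomputed changes of members in the 3 sets and the average, 621 kept direction and side of the threshold, 32 lost a call, 4 gained one and 39 reversed. For the average, the setting of only the libraries compared repeats the main fit, so its values count among those kept without being a new fit. Of 696 between ages and Cre lines, 596 kept both, 22 lost a call, 16 gained one and 62 reversed. The relations of Neurod4 kept their sign and side with a pseudocount of 5 and after quantile normalization. Depth limits Neurod4 most, at 15 reads in the library with the fewest. No paired analysis was possible because groups share no replicate number.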
